A study of Mus musculus with 8 samples.

Results

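The nuclear-encoded respiratory chain was taken as the subunit genes of complexes I to V, found by symbol: the Ndufa, Ndufb, Ndufc, Ndufs, Ndufv and Ndufab1 genes, Sdha to Sdhd, the Uqcr genes and Cyc1, the Cox4 to Cox8 genes, and the Atp5 genes. The symbols matched 99 rows, of which 9 carry a -ps ending and were set aside. Of the other 90, 86 had at least 10 counts in at least 2 libraries and are the members, among 55304 rows in all. They comprise 36 genes of complex I, 4 of complex II, 9 of complex III, 15 of complex IV and 17 of complex V, 81 subunits together. Ndufa4, named after complex I, was counted with complex IV, where its protein is now placed. The other 5 members are Cox7a2l, a supercomplex assembly factor, Ndufa4l2, a relative of Ndufa4, and the gene copies Cox6c2, Ndufb4c and Ndufs6b. Just inside the count rule lay Cox6c2, with 10 and 13 counts in the 2 WT vehicle libraries, and below it lay Cox7b2, Cox8c, Cox8b with at most 4 counts and Ndufa11b with at most 5. Cox6c2 was not tested because its counts were too low, which left 85 members in the tests.

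RNA is described as coming from mouse kidney cells that were freshly isolated for their binding of the lectin DBA, which marks mainly the collecting duct. The extraction text also mentions whole kidney, and the sources used here do not settle which applies to these libraries. The word cells below carries that limit. Mice were wild type (WT) or carried autosomal dominant polycystic kidney disease (ADPKD), and each genotype received DMSO vehicle or 666-15, a small molecule that blocks CREB-driven transcription. The inhibitor was dosed at 5 mg/kg daily for 5 days followed by 2 days of rest, from postnatal day 11 and over 3 weeks, and vehicle mice followed the same schedule. The sources used here name neither the altered gene, its Cre driver nor the mouse strain, and do not tie the 2 libraries of each group to different mice. The p-values therefore measure only the spread between libraries, which outside the WT inhibitor group may be technical. There were 4 groups of 2 libraries with 15108793 to 19702638 counts each. WT inhibitor library 2 had 17688 counts of Xist and 0 of the Y-linked Ddx3y, whereas the other 7 libraries had at most 8 of Xist and at least 1776 of Ddx3y, so the sex of 1 library differs from the rest. The 2 WT inhibitor libraries therefore do not come from the same mouse.

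The respiratory chain passes electrons from NADH (complex I) and succinate (complex II) through ubiquinone, complex III and cytochrome c to oxygen at complex IV. Complexes I, III and IV pump protons across the inner mitochondrial membrane, and complex V, the ATP synthase, uses that gradient to make ATP. In the kidney, proximal tubule and thick ascending limb cells are rich in mitochondria, and among collecting duct cells the intercalated cells carry more of them than principal cells. Mitochondrial DNA encodes 13 further subunits. Their rows held 0 counts in every library and are not used here, so the values below cover the nuclear-encoded RNAs only.

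Markers of nephron segments other than the collecting duct were present in these libraries, at shares that differed between groups. The 14 proximal tubule markers took 1.75% and 1.56% of counts in the WT vehicle libraries, 0.625% and 0.619% with inhibitor, 0.0139% and 0.0181% in ADPKD vehicle and 0.041% and 0.0391% in ADPKD inhibitor libraries, with none at 0. The 7 thick ascending limb markers took 0.693% and 0.684%, 0.307% and 0.403%, 0.0332% and 0.0339%, and 0.0317% and 0.0399% in the same order. The 10 markers of principal cells, a cell type of the collecting duct, took 0.128% and 0.168%, 0.633% and 0.644%, 0.199% and 0.168%, and 0.227% and 0.259%. The 8 intercalated cell markers took 0.164% and 0.169%, 0.245% and 0.295%, 0.0469% and 0.0539%, and 0.129% and 0.165%. Per kilobase of the longest transcript, the proximal tubule phosphate transporter Slc34a1 stood at 936 CPM (counts scaled to the library's effective size) in WT vehicle cells and the collecting duct water channel Aqp2 at 242, against 1.05 and 387 in ADPKD vehicle cells. The 8 tubular injury markers took 0.563% and 0.59% of counts in WT vehicle, 0.725% and 0.687% in WT inhibitor, 1.68% and 1.69% in ADPKD vehicle and 1.63% and 1.81% in ADPKD inhibitor libraries. Between genotypes with vehicle, 7 of 8 tubular injury, 6 of 7 stromal and 6 of 8 macrophage markers were higher in ADPKD cells, and the stromal list took 0.0172% and 0.0131% against 0.0333% and 0.0577% of counts. Of all genes tested, 28.8% were higher in that comparison. The marker lists therefore moved with genotype and with inhibitor, and their part in the results below was not tested. In bulk samples, fewer cells of a type and less RNA per cell cannot be told apart.

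The comparison of genotypes asks how the respiratory chain differs in cystic disease. In vehicle-treated mice, 80 of the 81 subunits were lower in ADPKD than in WT cells and none was higher, with a median log2 fold change of -1.51. Over all 17440 genes tested, 27.6% were lower and 28.8% higher in that comparison, 56.4% in either direction (edgeR's quasi-likelihood test, Benjamini-Hochberg adjusted p below 0.05), and the median was 0.05. Summed over the 81 subunits, the level was 20520 and 20300 CPM in the WT vehicle libraries, 15040 and 15990 with inhibitor, 7663 and 7026 in ADPKD vehicle and 6765 and 7623 in ADPKD inhibitor libraries. Both ADPKD groups lay far below both WT groups, at 36% and 35.2% of the WT vehicle mean, and WT inhibitor cells lay between at 76%. Under inhibitor, too, 80 subunits were lower in ADPKD than in WT cells, against 24.5% of all genes (46.3% differed in either direction, 21.8% upward), with a median of -1.10.

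**Figure D1:**
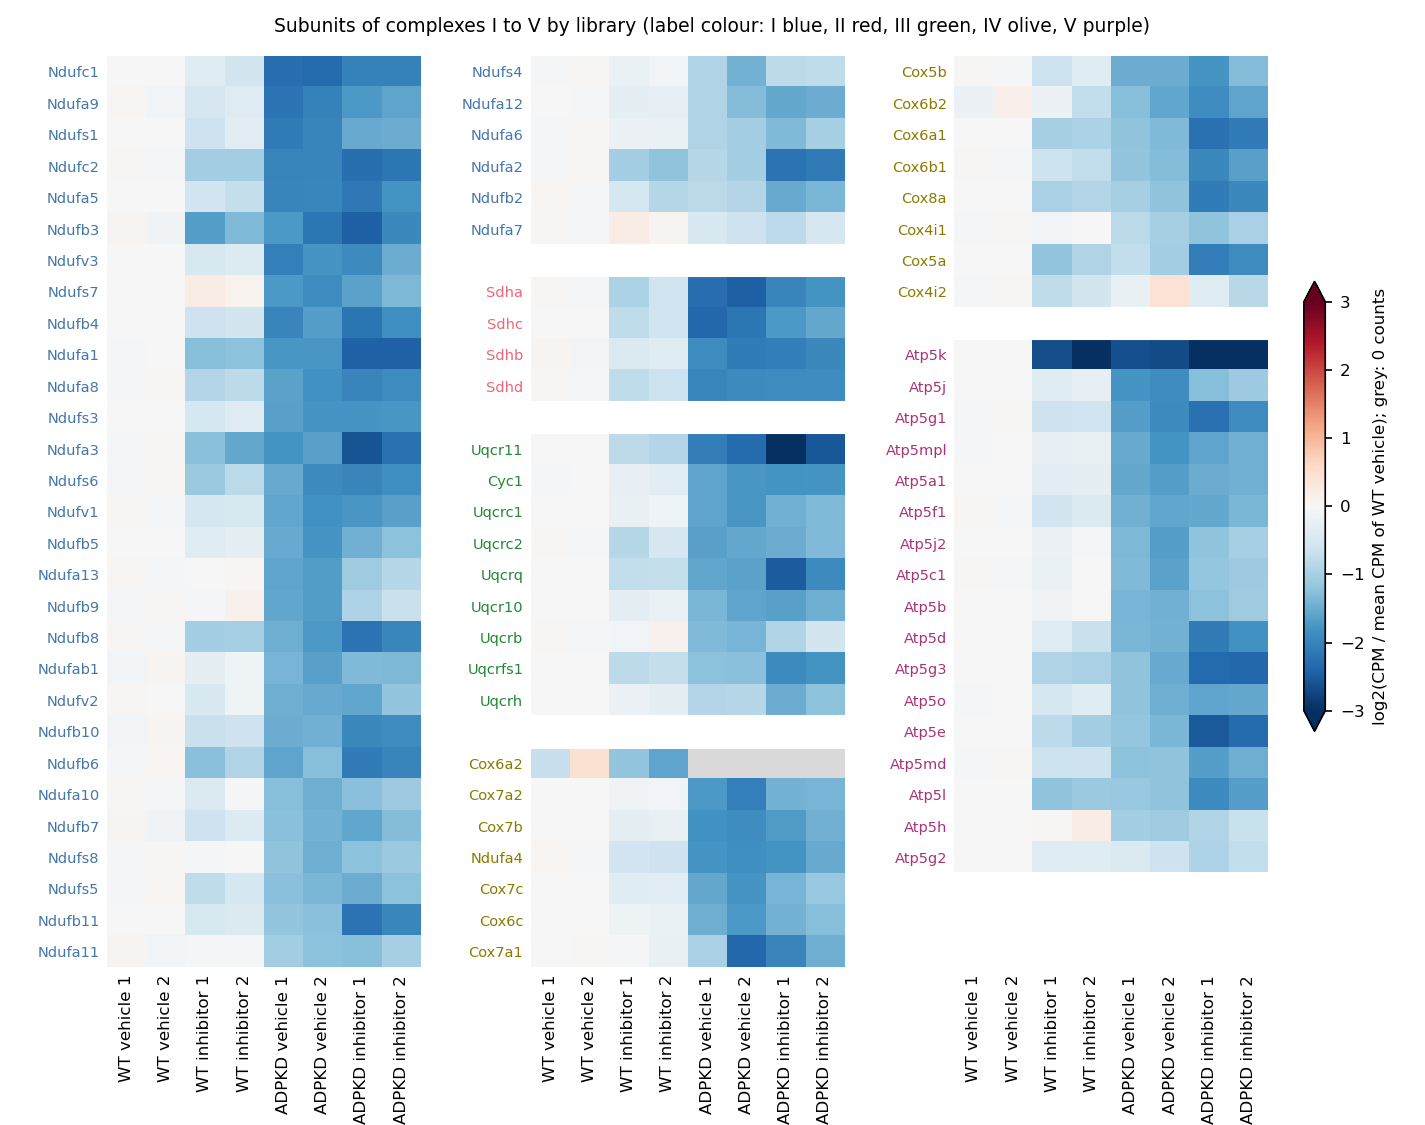
Log2 ratio of the CPM of subunits (rows, coloured by complex, sorted by the vehicle genotype fold change) to its WT vehicle mean in each of the 8 libraries (columns); grey cells hold 0 counts. In both ADPKD vehicle libraries all subunits shown are blue (lower), except Cox4i2 and the grey Cox6a2.

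The 5 complexes were all lower in ADPKD vehicle cells, and complex II had the largest median difference. The median log2 fold change was -1.62 for complex I (36 of 36 subunits lower), -2.13 for complex II (4 of 4), -1.58 for complex III (9 of 9), -1.49 for complex IV (14 of 15) and -1.42 for complex V (17 of 17). Summed CPM relative to WT vehicle were 34.1%, 21.6%, 36%, 40.5% and 36.9% for complexes I to V. With inhibitor in both genotypes, the medians lay closer together, at -1.08, -1.15, -1.21, -1.10 and -1.10. Per kilobase of the longest transcript, the median level of a subunit in WT vehicle cells was lowest in complex I, at 93.2 CPM, followed by complex II at 170, complex V at 202, complex III at 223 and complex IV at 259. In ADPKD vehicle cells those levels were 31.8, 43.5, 67.8, 58.9 and 73.6 CPM per kilobase. Complex I stayed lowest and complex IV highest, also with the union of all exons as the length.

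**Figure D2:**
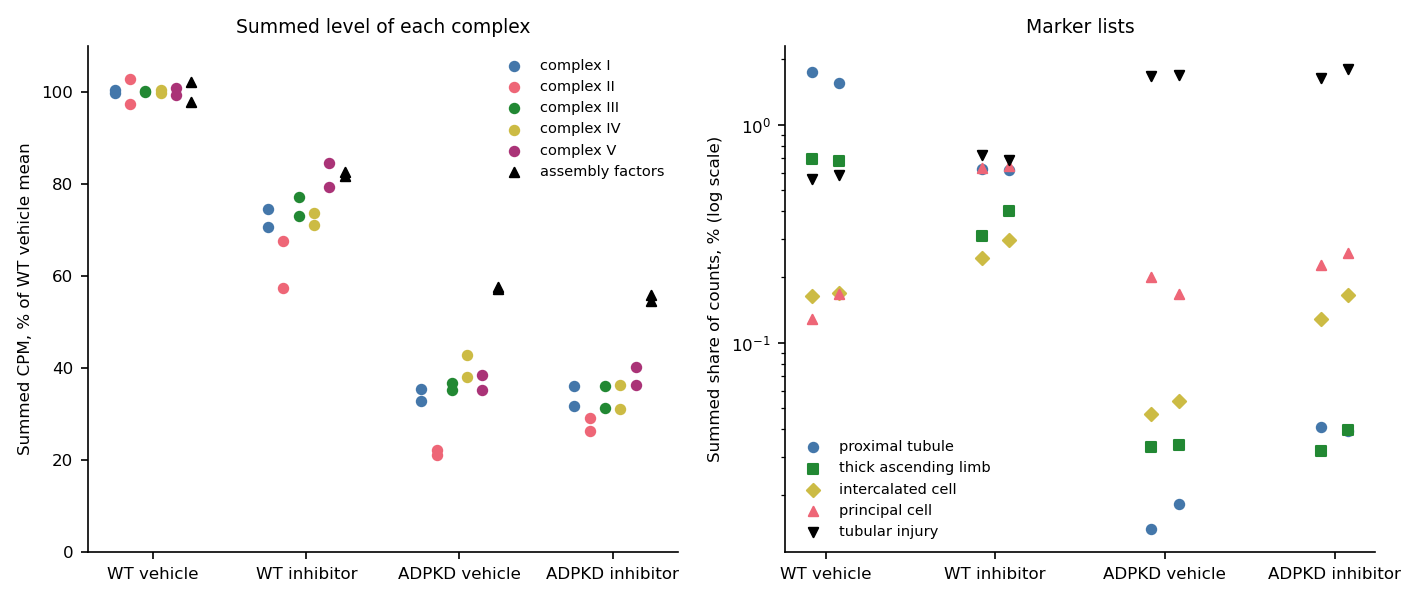
Left, summed CPM of the subunits of each complex and of the assembly factors in each library, as a percentage of the WT vehicle mean; right, the share of counts taken by 5 marker lists in each library, on a log scale. Complex II lies lowest in both ADPKD vehicle libraries, around its mean of 21.6%, and the assembly factors lie highest.

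Complex I was lower across its modules. The matrix arm N module, which oxidises NADH, had a median of -1.31 over 10 subunits, the Q module, which reduces ubiquinone, -1.83 over 6, and the membrane arm -1.62 over 19, with every subunit lower. The 7 core subunits, those shared with bacteria, had a median of -1.71 and the 29 accessory subunits of -1.59. The extremes were both accessory subunits. Ndufc1, of the membrane arm, had 79.4 and 79.1 CPM in WT vehicle and 16.3 and 15.8 in ADPKD vehicle libraries, a log2 fold change of -2.30 ± 0.12 (SE; adjusted p = 6.68e-09). Ndufa7, of the N module, had 79.2 and 75.3 CPM against 56 and 49.8 (-0.55 ± 0.12; adjusted p = 0.00187), so even for the subunit that differed least the libraries of the groups did not overlap. Ndufs1, the large iron-sulfur subunit of the N module, had 197 and 191 CPM against 45.3 and 48.8 (-2.04 ± 0.12; adjusted p = 1.34e-08).

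Complex II, succinate dehydrogenase, is the chain's link to the citric acid cycle and the only complex with no mitochondrially encoded subunit. Sdha, its flavoprotein, had 728 and 692 CPM in WT vehicle and 145 and 130 in ADPKD vehicle libraries, 5.15-fold lower (log2 fold change -2.36 ± 0.13; adjusted p = 8.76e-09). Sdhb, its iron-sulfur subunit, was 3.98-fold lower (-1.99 ± 0.11), and the membrane anchors Sdhc and Sdhd 4.78-fold (-2.26 ± 0.11) and 3.81-fold lower (-1.93 ± 0.10), with adjusted p of at most 1.14e-08 for the 3. The 4 genes thus lay between 3.81-fold and 5.15-fold lower. The larger complexes had wider ranges, but a range widens with the number of genes. The 5 subunits of the F1 head and central stalk of complex V, for example, spanned only -1.59 to -1.27.

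Complex III carries electrons from ubiquinol to cytochrome c. Uqcr11, a small accessory subunit, had 134 and 135 CPM in WT vehicle and 32.3 and 27.3 in ADPKD vehicle libraries (-2.18 ± 0.15; adjusted p = 9.31e-08). Uqcrh, the hinge protein, had 194 and 197 CPM against 106 and 108 (-0.86 ± 0.11; adjusted p = 1.39e-05). The redox subunits lay between these: the Rieske protein Uqcrfs1 at -1.25 ± 0.09 and cytochrome c1, Cyc1, at -1.66 ± 0.10. The core proteins Uqcrc1 and Uqcrc2 stood at -1.66 ± 0.10 and -1.58 ± 0.12.

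In complex IV, cytochrome c oxidase, several subunits exist as isoforms with different tissue distribution. The widely expressed Cox4i1, the regulatory subunit that binds nucleotides, had 727 and 757 CPM in WT vehicle and 423 and 374 in ADPKD vehicle libraries (-0.90 ± 0.11; adjusted p = 1.05e-05). Its counterpart Cox4i2, known from lung and hypoxic cells, was the only subunit that was not lower in either genotype comparison, at 1.64 and 1.71 CPM against 1.45 and 2.28 (0.15 ± 0.43; adjusted p = 0.788), a level from 28 to 42 counts at which only large differences could be seen. Cox6a2, the isoform of heart and skeletal muscle, had 26 and 49 counts in WT vehicle and 14 and 11 in WT inhibitor libraries and 0 in all 4 ADPKD libraries. Taking 3 counts per group as the detection floor, it was at least 25.5-fold lower in ADPKD cells with vehicle and at least 8.11-fold lower with inhibitor. Cox6a1, the form of most other tissues, took over 99% of the pair per length in each group.

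The make-up of the Cox7a family differed between the groups. Cox7a2, the common isoform, had 199 and 196 CPM in WT vehicle and 60 and 47.3 in ADPKD vehicle libraries (-1.88 ± 0.12; adjusted p = 2.46e-08). Its relative Cox7a2l, which joins complex III to complex IV in supercomplexes, had 95.2 and 86.3 CPM against 177 and 176, and was the only member of the 85 tested that was higher (1.94-fold, 0.96 ± 0.12; adjusted p = 1.57e-05). Cox7a2l therefore moved against the other members, and its libraries did not overlap between the genotypes. With inhibitor it stood at 103 and 108 CPM in WT and 101 and 129 in ADPKD cells, where the genotypes did overlap (0.12 ± 0.12; adjusted p = 0.432, or 0.36 with adjusted p = 0.0212 when the trend with transcript length was removed). Per kilobase of the longest transcript, Cox7a2l made up 19.6% ± 0.99 (SD, n = 2) of the family in WT vehicle, 23.3% ± 0.55 in WT inhibitor, 63.2% ± 5.1 in ADPKD vehicle and 45.3% ± 3.5 in ADPKD inhibitor cells. Over the union of exons these shares were 20.7%, 24.4%, 64.5% and 47%. Ndufa4l2, the other member that belongs to no single complex, had 77 and 47 counts in WT vehicle and 5 and 32 in ADPKD vehicle libraries (-1.73 ± 0.64; adjusted p = 0.0367), and this call ended without either WT vehicle library, without ADPKD vehicle library 1 and without either ADPKD inhibitor library (-0.94 to -1.96; adjusted p = 0.0512 to 0.157).

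The promoter of Cox7a2l, the member that was higher, is given here from RefSeq as 250 bases before to 50 bases after the start (GRCm38.p6, chr17:83514284-83514583, minus strand, written 5′ to 3′ in the direction of the gene). It holds none of the 5 motifs that were searched in the promoters and are spelled out with those of complex V.

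Cox7a2l: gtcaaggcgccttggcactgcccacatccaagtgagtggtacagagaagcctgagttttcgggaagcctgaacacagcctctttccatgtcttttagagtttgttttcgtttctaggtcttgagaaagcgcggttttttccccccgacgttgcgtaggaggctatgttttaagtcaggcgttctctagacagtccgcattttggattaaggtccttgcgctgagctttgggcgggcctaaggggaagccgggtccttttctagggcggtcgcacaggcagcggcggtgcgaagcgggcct

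In complex V, the F1 head that makes ATP had a median of -1.42 over 5 subunits, the ring of subunit c, which turns with the proton flow, -1.35 over 3 genes, the peripheral stalk -1.41 over 4 and the other membrane subunits -1.48 over 5, all lower. The catalytic subunit Atp5b had 2840 and 2760 CPM in WT vehicle and 1070 and 1030 in ADPKD vehicle libraries (-1.42 ± 0.10; adjusted p = 6.08e-08). Per length it stood highest in this complex in all 4 groups. Its partner Atp5a1 was lower by a similar amount (-1.59 ± 0.09).

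Atp5k encodes subunit e, a membrane subunit that helps ATP synthase pair into dimers, and it had the largest vehicle genotype difference of the subunits with counts in every library, and the largest fall with inhibitor in each genotype. It had 1393 and 1187 counts in WT vehicle, 168 and 91 in WT inhibitor, 217 and 201 in ADPKD vehicle and 35 and 47 in ADPKD inhibitor libraries, or 69.3 and 70, 11.1 and 5.74, 11.2 and 10.9, and 2.28 and 3.19 CPM. WT vehicle libraries stood apart above all others, ADPKD inhibitor libraries lay below all others, and WT inhibitor and ADPKD vehicle libraries lay close together. Atp5k was 6.29-fold lower in ADPKD than WT cells with vehicle (-2.65 ± 0.24; adjusted p = 2.60e-06), 8.27-fold lower with inhibitor in WT cells (-3.05 ± 0.25; adjusted p = 7.95e-06) and 4.06-fold lower with inhibitor in ADPKD cells (-2.02 ± 0.29; adjusted p = 0.000253). The row Atp5k-ps2, set aside, had a mean of 0.486 CPM in WT vehicle cells.

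Subunit c is encoded by 3 genes whose mature proteins are the same. Atp5g3 had 551 and 563 CPM in WT vehicle, 298 and 285 in WT inhibitor, 242 and 196 in ADPKD vehicle and 111 and 108 in ADPKD inhibitor libraries. Atp5g2 had 116 and 117, 89.5 and 90.8, 86.2 and 76, and 62 and 70.7 CPM in that order. The order of the 4 groups was the same for both genes, but Atp5g3 differed more: with vehicle it was lower in ADPKD cells by -1.35 ± 0.11 (adjusted p = 2.79e-07) and Atp5g2 by -0.53 ± 0.11 (adjusted p = 0.000945), the smallest difference of the 80 lower subunits. The fall of Atp5g2 with inhibitor in ADPKD cells depended on the scaling: its log2 fold change turned positive when the GC or the length trend was removed. Atp5g1 had 228 and 241 CPM in WT vehicle and 75.3 and 62.1 in ADPKD vehicle libraries (-1.77 ± 0.13; adjusted p = 1.38e-07). Per kilobase of the longest transcript, Atp5g2 made up 18.2% ± 0.17 of the 3 genes in WT vehicle, 24.4% ± 0.68 in WT inhibitor, 28.7% ± 1.3 in ADPKD vehicle and 38.7% ± 2.1 in ADPKD inhibitor cells, and Atp5g3 made up 75.9% ± 0.04, 69% ± 0.86, 67.4% ± 1.3 and 56% ± 2.9. With the union of exons as length Atp5g2 went from 18.7% to 39%, and Atp5g3 from 68.5% to 49.6%, between the first and the last of these groups.

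**Figure D3:**
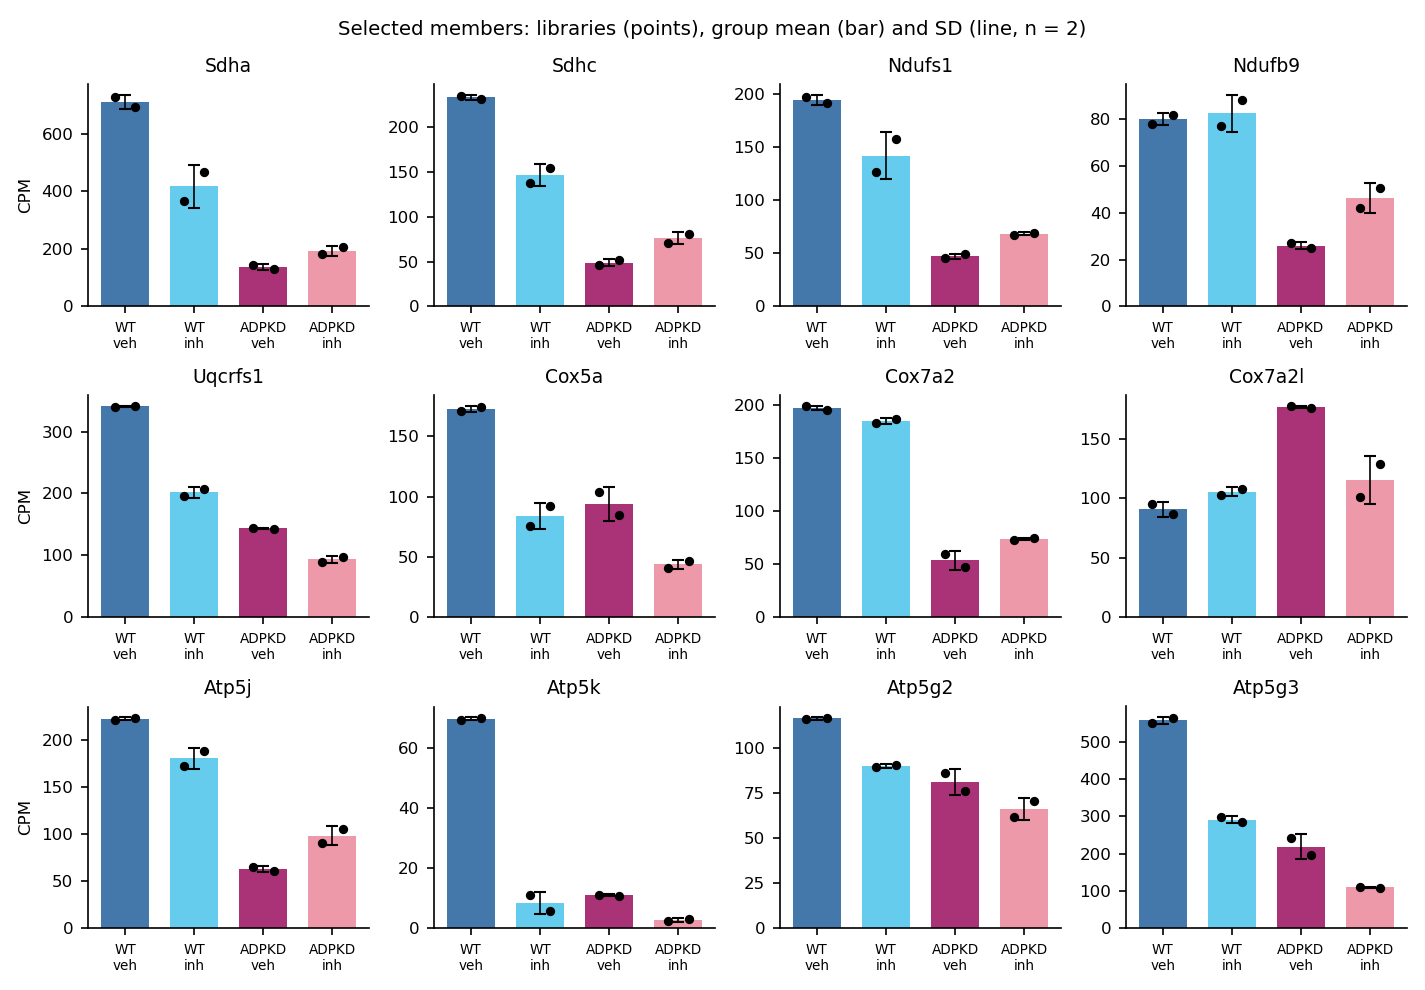
CPM of 12 members in each library (points), with the group mean (bar) and SD (line, n = 2). Atp5k falls from a mean of 69.6 CPM in WT vehicle to 2.73 in ADPKD inhibitor cells, and Cox7a2l is highest in ADPKD vehicle cells.

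Promoters are shown for the subunit c genes, which differ in how far they were lowered, for Atp5k, which had the largest falls, and for Sdhd and Uqcrfs1 as members of complexes II and III. Promoters of 300 bases were listed in RefSeq for 67 of the 86 members. They were searched on both strands for an NRF1 motif (GCGCATGCG, in which both strands of the full palindrome match), an ETS motif of the GABP kind (CCGGAAG), an estrogen-related receptor (ERR) element (AAGGTCA), the full cAMP response element (CRE) bound by CREB (TGACGTCA) and a YY1 motif (AAGATGGC). Capitals mark matches, and matches of different motifs do not overlap in these sequences. A match is not a measured site. All 6 genes lie on the minus strand of GRCm38.p6, and each sequence runs 5′ to 3′ along the gene: Atp5g1 at chr11:96075582-96075881, Atp5g2 at chr15:102670998-102671297, Atp5g3 at chr2:73911277-73911576, Atp5k at chr5:108434350-108434649, Sdhd at chr9:50603800-50604099 and Uqcrfs1 at chr13:30545267-30545566.

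Atp5g1: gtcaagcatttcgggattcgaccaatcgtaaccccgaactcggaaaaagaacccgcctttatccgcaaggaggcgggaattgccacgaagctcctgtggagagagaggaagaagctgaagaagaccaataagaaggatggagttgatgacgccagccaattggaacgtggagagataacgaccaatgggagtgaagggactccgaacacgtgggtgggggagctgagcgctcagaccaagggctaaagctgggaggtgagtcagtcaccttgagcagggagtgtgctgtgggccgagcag

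Atp5g2: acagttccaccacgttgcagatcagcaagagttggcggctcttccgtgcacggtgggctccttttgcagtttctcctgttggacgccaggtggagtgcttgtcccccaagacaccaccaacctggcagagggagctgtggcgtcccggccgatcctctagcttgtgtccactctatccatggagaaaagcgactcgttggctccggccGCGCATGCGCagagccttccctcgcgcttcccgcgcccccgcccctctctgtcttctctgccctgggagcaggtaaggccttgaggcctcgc

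Atp5g3: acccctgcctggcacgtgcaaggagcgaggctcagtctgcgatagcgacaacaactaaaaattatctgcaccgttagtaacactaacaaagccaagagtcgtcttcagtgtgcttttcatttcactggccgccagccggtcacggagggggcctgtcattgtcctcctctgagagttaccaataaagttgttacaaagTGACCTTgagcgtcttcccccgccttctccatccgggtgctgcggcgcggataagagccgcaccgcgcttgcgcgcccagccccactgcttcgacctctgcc

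Atp5k: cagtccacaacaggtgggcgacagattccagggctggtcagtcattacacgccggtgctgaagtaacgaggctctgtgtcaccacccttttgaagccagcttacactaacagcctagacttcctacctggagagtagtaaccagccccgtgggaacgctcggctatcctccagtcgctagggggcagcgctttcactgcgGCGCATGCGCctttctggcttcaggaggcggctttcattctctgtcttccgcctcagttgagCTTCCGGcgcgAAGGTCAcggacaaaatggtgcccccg

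Sdhd: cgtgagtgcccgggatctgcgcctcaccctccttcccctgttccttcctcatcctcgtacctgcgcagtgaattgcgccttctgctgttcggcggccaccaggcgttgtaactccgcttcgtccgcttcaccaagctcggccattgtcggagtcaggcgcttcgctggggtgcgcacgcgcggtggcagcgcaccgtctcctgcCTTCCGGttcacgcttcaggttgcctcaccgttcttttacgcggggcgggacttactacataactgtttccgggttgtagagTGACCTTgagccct

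Uqcrfs1: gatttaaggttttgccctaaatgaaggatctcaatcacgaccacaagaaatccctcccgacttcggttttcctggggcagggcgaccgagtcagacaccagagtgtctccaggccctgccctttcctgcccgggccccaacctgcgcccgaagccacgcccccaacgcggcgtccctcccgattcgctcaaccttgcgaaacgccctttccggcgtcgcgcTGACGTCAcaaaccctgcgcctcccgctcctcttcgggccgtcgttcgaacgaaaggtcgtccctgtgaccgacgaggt

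Of these, Atp5g1 held no match, Atp5g2 an NRF1 motif, Atp5g3 an ERR element on the opposite strand, and Uqcrfs1 the full CRE. Atp5k held an NRF1, an ETS and an ERR match, the first before the start and the other pair after it, and Sdhd an ETS and an ERR match. Among the 67 member promoters, 8 (11.9%) held the NRF1 motif, against 1.95% of 27025 genes with a promoter, 17 (25.4%) the ETS motif against 9.93%, 8 (11.9%) the ERR element against 5.38%, 4 (5.97%) the CRE against 2.03% and 10 (14.9%) the YY1 motif against 3.19%. Among 12056 tested genes with a promoter the shares were 3.57%, 17.8%, 4.23%, 3.3% and 4.72%. The 4 members with the CRE were Ndufa10, Ndufa11, Ndufb2 and Uqcrfs1. Their median log2 fold change with inhibitor was -0.45 in WT and -0.29 in ADPKD cells, and that of the 62 subunits without it was -0.48 and -0.10. For the NRF1 motif the medians were -0.83 with and -0.46 without it in WT cells, and -0.44 and -0.06 in ADPKD cells. For the ETS motif they were -0.68 and -0.45 in WT cells, and -0.49 and -0.04 in ADPKD cells. For the ERR element they were -0.80 with and -0.45 without it in WT cells, and -0.60 and -0.06 in ADPKD cells. For the YY1 motif they were -0.45 and -0.50 in WT cells, and 0.30 and -0.19 in ADPKD cells. These medians describe few genes each and were not tested. They are not independent of each other, since the motifs share genes. Atp5k, with the largest falls, and Atp5l hold the NRF1, ETS and ERR motifs. Cox6a1 and Uqcr11 hold NRF1 and ETS, and Atp5e and Sdhd hold ETS and ERR.

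Assembly factors, which build the complexes but are not part of them, differed less than the subunits in the vehicle comparison of genotypes. Of 52 tested, 34 were lower and 2 higher in ADPKD cells, with a median of -0.95, and their summed level was 57.5% of WT vehicle against 36% for the subunits. These counts are 65.4% and 3.85% of the factors, against 27.6% of all genes lower and 28.8% higher. By complex, 14 of 17 factors of complex I were lower (median -1.15), 1 of 4 of complex II (0.02), 4 of 6 of complex III (-0.90), 11 of 20 of complex IV (-0.84) and 4 of 5 of complex V (-1.03). Complex II, whose subunits had the largest median difference, had factors with a median near 0. Sdhaf2, which helps to attach the flavin to Sdha, was higher, with 24.7 and 26.4 CPM in WT vehicle and 34.2 and 35.9 in ADPKD vehicle libraries (0.46 ± 0.13; adjusted p = 0.00734). The other higher factor was Sco1, a copper chaperone of complex IV (0.61 ± 0.18; adjusted p = 0.0121). Both calls ended without WT vehicle library 1, at 0.39 (adjusted p = 0.0951) for Sdhaf2 and 0.50 (adjusted p = 0.121) for Sco1. The largest difference was that of Ndufaf6, a complex I factor, with 13.5 and 12.9 CPM against 1.81 and 1.9 (-2.83 ± 0.26; adjusted p = 9.11e-07).

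**Figure D4:**
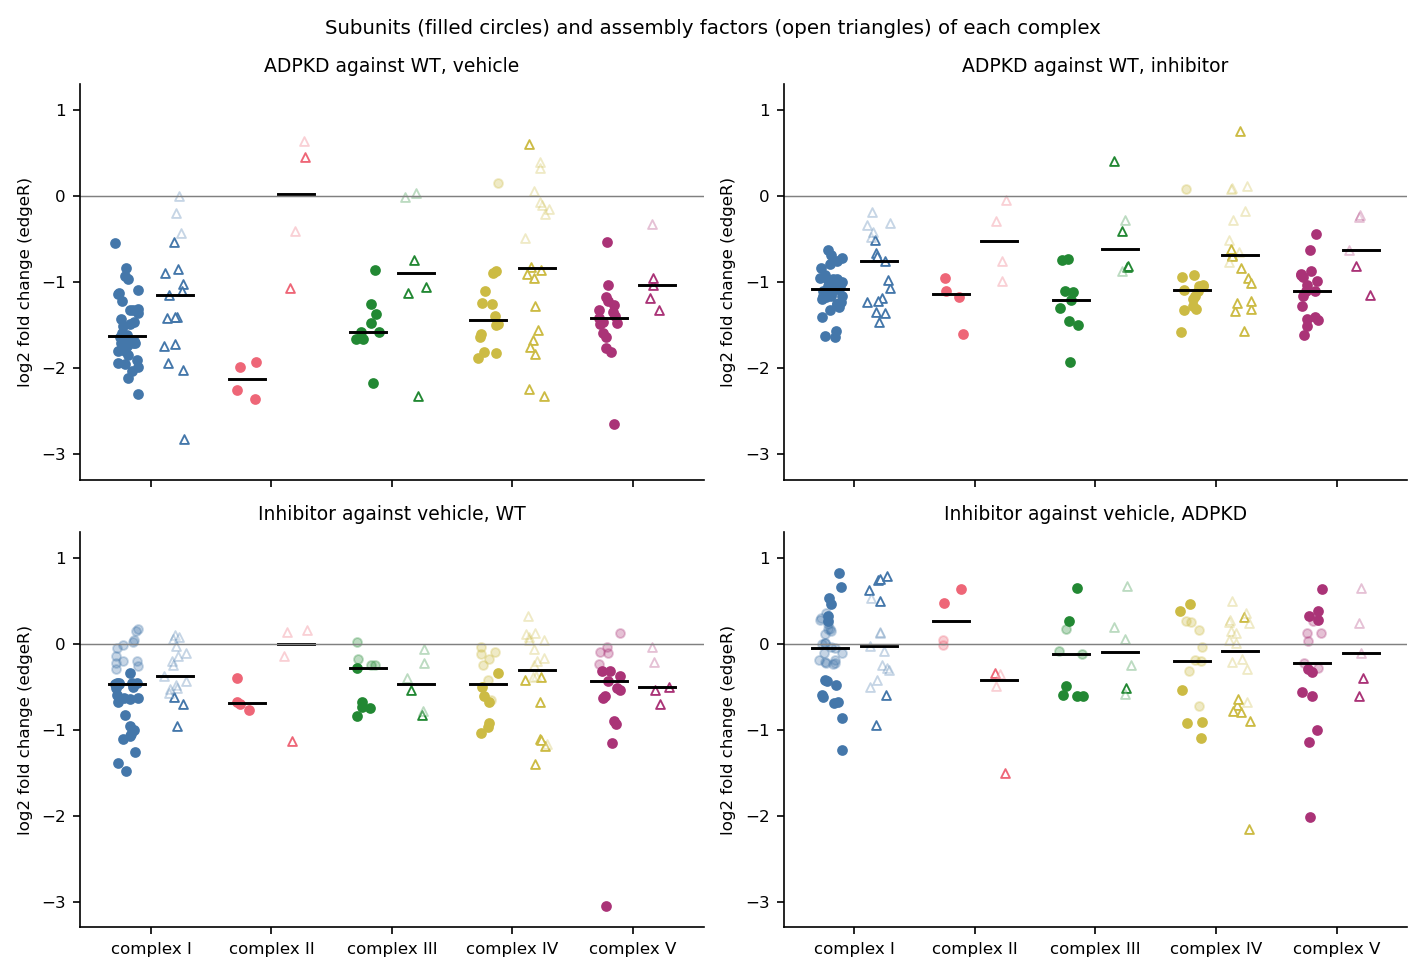
Log2 fold change (edgeR) of each subunit (filled circles) and assembly factor (open triangles) by complex in 4 comparisons; faded symbols did not pass adjusted p below 0.05, bars are medians, and Cox6a2, at 0 in ADPKD cells, is left out. In the vehicle genotype comparison every subunit but Cox4i2 lies below 0, while assembly factors of complexes II and IV lie on both sides.

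Outside the complexes, 13 of 15 genes of the mobile electron carriers were lower in ADPKD vehicle cells and none higher (median -1.16). Coq8a, a kinase-like protein of ubiquinone synthesis, differed most, with 99.4 and 89.4 CPM against 3.94 and 3.41 (-4.68 ± 0.21; adjusted p = 2.04e-09). Cytochrome c, Cycs, had 258 and 276 CPM against 119 and 121 (-1.16 ± 0.13; adjusted p = 7.21e-06). Atpif1, the inhibitor protein of ATP synthase, was lower as well (-1.29 ± 0.15; adjusted p = 1.10e-05). Of 15 genes of mitochondrial import and the outer membrane, 8 were lower and 1 higher, with a median of -0.32. The shares to set beside both lists are 27.6% of all genes lower and 28.8% higher.

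Among 14 regulators of respiratory genes, 8 were lower and 1, Yy1, was higher in ADPKD vehicle cells, against 27.6% of all genes lower and 28.8% higher. The coactivator Ppargc1a had 122 and 135 CPM in WT vehicle and 77.5 and 74.9 in ADPKD vehicle libraries (-0.75 ± 0.16; adjusted p = 0.00231). The nuclear receptor Esrra, its partner, had 89 and 87.4 CPM against 29.8 and 25.1 (-1.68 ± 0.13; adjusted p = 2.69e-07). Both were lower with genotype but parted with inhibitor: Esrra fell in WT (-1.14 ± 0.13; adjusted p = 4.46e-05) and ADPKD cells (-0.99 ± 0.14; adjusted p = 0.000148), whereas Ppargc1a rose in both, by 0.75 ± 0.16 (adjusted p = 0.0058; 0.68 with adjusted p = 0.0554 without WT vehicle library 1) and 0.78 ± 0.16 (adjusted p = 0.00332). Gabpa, the ETS factor of GABP, had 40 and 43.6 CPM in ADPKD vehicle and 68.6 and 65 in ADPKD inhibitor libraries (0.68 ± 0.13; adjusted p = 0.00113). Its exons overlap those of Atp5j on the opposite strand by 397 bases, which unstranded counting would not separate. Nrf1 (-0.01; adjusted p = 0.955) and Tfam, which maintains mitochondrial DNA (0.37; adjusted p = 0.0601), did not pass the test between genotypes with vehicle, although Tfam did without either WT inhibitor library (0.36 in both; adjusted p = 0.0195 and 0.0173).

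The inhibitor comparisons ask how blocking CREB alters the respiratory chain in each genotype. With inhibitor, 52 of the 81 subunits fell in WT cells and none rose, with a median of -0.46. Of all genes, 11.6% were lower and 13.9% higher in that comparison, 25.5% in either direction. The count of members that fell was 53 with all libraries and 49 without WT inhibitor library 2, the library of differing sex. All 5 complexes took part: 24 subunits of complex I (median -0.46), 4 of complex II (-0.69), 5 of complex III (-0.28), 7 of complex IV (-0.50) and 12 of complex V (-0.43). Among them Ndufb3, of the membrane arm of complex I, had 72 and 63 CPM with vehicle and 21.4 and 26.9 with inhibitor (-1.48 ± 0.20; adjusted p = 0.000211), and Sdhd had 213 and 203 CPM against 123 and 132 (-0.70 ± 0.09; adjusted p = 0.000135). The X-linked Ndufb11 had 113 and 116 CPM in the 2 WT inhibitor libraries, whose sex differed, and Ndufa1, X-linked as well, had 37.9 and 39.1.

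In ADPKD cells the inhibitor moved subunits both ways. There 16 rose and 24 fell, with a median of -0.05, against 22.3% of all genes higher and 19.1% lower (41.4% in either direction), so the shares of subunits, 19.8% and 29.6%, were not far from those of all genes. By complex, 6 rose and 9 fell in complex I, 2 and 0 in complex II, 2 and 4 in complex III, 2 and 4 in complex IV and 4 and 7 in complex V, with medians of -0.04, 0.27, -0.12, -0.19 and -0.22. With the length trend removed, the medians of complexes I, III, IV and V were above 0, at 0.20, 0.02, 0.18 and 0.09, and that of complex II was 0.39. Over all tested members the counts were 17 and 25. They depended on the libraries and the scaling: 7 rose without ADPKD inhibitor library 2, 9 rose without ADPKD vehicle library 2 and 13 fell without ADPKD inhibitor library 1, 29 rose and 17 fell when the length trend was removed, and 10 rose and 29 fell among members with at least 5 CPM.

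Ndufb9, of the membrane arm, rose most among the subunits, with 27.1 and 24.9 CPM with vehicle and 41.9 and 50.7 with inhibitor in ADPKD cells (0.83 ± 0.13; adjusted p = 0.000275). Sdhc had 46 and 51.8 CPM against 71.2 and 81 (0.64 ± 0.11; adjusted p = 0.00058), and Ndufs1 45.3 and 48.8 against 67.5 and 69.4 (0.54 ± 0.12; adjusted p = 0.00261). In these 3 genes the vehicle and inhibitor libraries did not overlap. Atp5j, of the peripheral stalk, had 65 and 60.7 CPM against 90.9 and 105 (0.64 ± 0.10; adjusted p = 0.000402). Its exons overlap those of Gabpa on the opposite strand by 397 bases in GENCODE M21, and since the counting is not known to use strand, reads of the 2 genes cannot be told apart there.

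The genes that fell in ADPKD cells were mostly those that fell in WT cells, in comparisons that share no library. Of the 24, 22 also fell in WT cells, which is 91.7% of the 24 and 42.3% of the 52. Of all 81 subunits, 64.2% fell in WT cells, the share to set beside the 91.7%. Over all genes, 690 of the 3333 lower in ADPKD cells were lower in both genotypes, and these 690 are 3.96% of the 17440 tested. No subunit rose in both, against 6.55% of all genes, which follows from none having risen in WT cells. The 22 that fell in both were 8 genes of complex I, 3 of complex III, 4 of complex IV, 7 of complex V and none of complex II. Atp5g2 is among them, although its direction in ADPKD cells turned when the GC or the length trend was removed. After Atp5k the largest falls in ADPKD cells were those of Ndufa2 (-1.23 ± 0.12; adjusted p = 1.22e-05), an accessory subunit of the N module, Atp5e, the epsilon subunit of the central stalk (-1.14 ± 0.12; adjusted p = 2.03e-05), and Cox5a, a matrix-side subunit of complex IV (-1.10 ± 0.13; adjusted p = 3.89e-05). In WT cells the same 3 fell by -1.11 ± 0.12, -0.90 ± 0.12 and -1.04 ± 0.13. Cox5a, for example, had 171 and 174 CPM in WT vehicle, 76 and 92.1 in WT inhibitor, 104 and 84.4 in ADPKD vehicle and 41.1 and 46.6 in ADPKD inhibitor libraries. Across the 81 subunits the 2 inhibitor contrasts correlated with Pearson's r of 0.70 and Spearman's rho of 0.65, and Pearson's r was 0.62 without Atp5k. Over all 17440 genes they were 0.21 and 0.22. These are correlations across genes, which are not independent replicates.

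**Figure D5:**
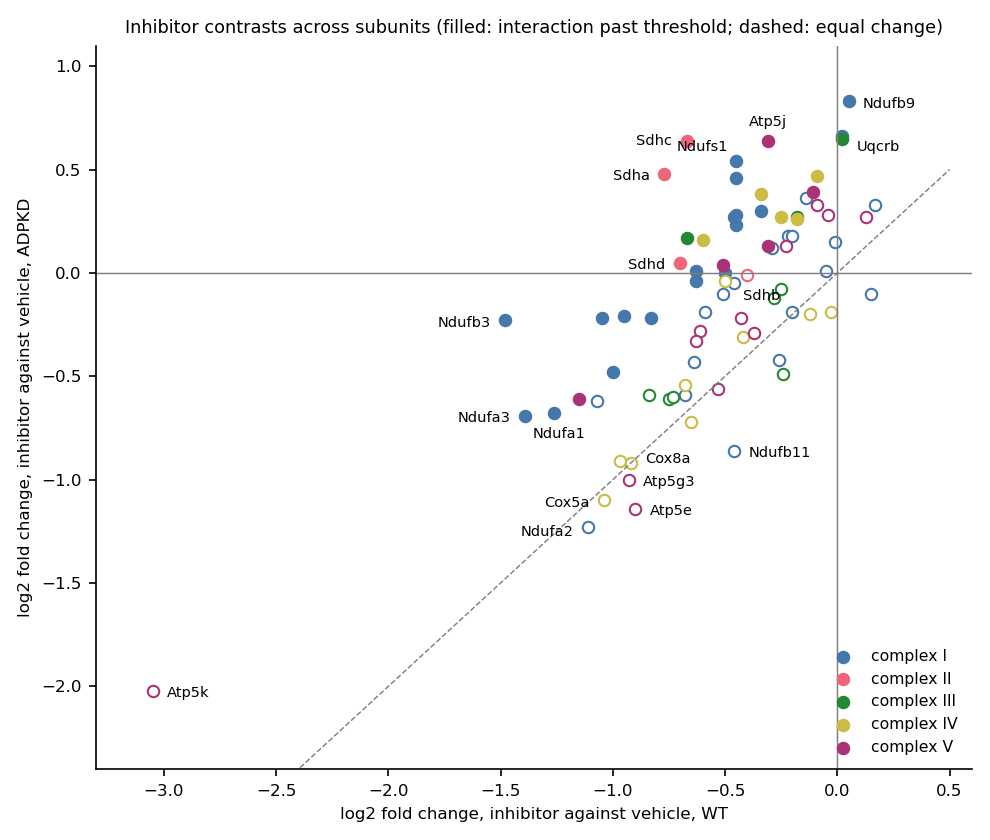
Log2 fold change with inhibitor in WT (horizontal) and ADPKD cells (vertical) for the subunits other than Cox6a2, coloured by complex; filled points passed the interaction test and the dashed line marks equal change. The subunits spread upward from Atp5k at the lower left, most of them above the line, and the filled points, Sdha and Sdhc among them, all lie above it.

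The size of the inhibitor effect differed between genotypes for 34 of the 81 subunits, always as a higher log2 fold change in ADPKD than in WT cells, against 13.6% of all genes in that direction and 13% in the other, 26.6% together. They were 18 of complex I, 3 of complex II, 3 of complex III, 5 of complex IV and 5 of complex V. Cox7a2l was the only member in the other direction (-0.84 ± 0.17; adjusted p = 0.00289). The count of 34 became 17 and 20 without WT vehicle library 1 and 2, and 14 without ADPKD inhibitor library 2. Among the 34 subunits that passed, the largest interactions were those of Sdhc at 1.31 ± 0.15 (adjusted p = 7.89e-05), Sdha at 1.25 ± 0.17 (adjusted p = 0.000268) and Ndufb3 at 1.25 ± 0.29 (adjusted p = 0.00773). Sdha had 365 and 469 CPM in WT inhibitor and 181 and 205 in ADPKD inhibitor libraries, so inhibitor-treated ADPKD cells remained below inhibitor-treated WT cells (-1.11 ± 0.12; adjusted p = 1.33e-05).

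Of the 16 subunits that rose in ADPKD cells, 7 fell in WT cells, among them Atp5j, Cox7c, Ndufa9, Ndufs1, Sdha and Sdhc. These 7 were 8.64% of the 81 subunits, while 2.83% of all genes were higher in ADPKD and lower in WT cells. They were also 43.8% of the 16, the share to set beside the 64.2% of all 81 subunits that fell in WT cells. For all genes, 12.7% of those higher in ADPKD cells were lower in WT cells, beside 11.6% of all genes tested. Sdhc passed the test in both contrasts whichever library was left out, the only one of those named to do so. The rise of Sdha in ADPKD cells ended without ADPKD inhibitor library 2 (0.40; adjusted p = 0.0729). The fall of Ndufs1 in WT cells ended without WT vehicle library 1 (-0.43; adjusted p = 0.0805) and without WT inhibitor library 1 (-0.30; adjusted p = 0.0611). That of Atp5j in WT cells ended without either WT vehicle library, WT inhibitor library 1 or either ADPKD inhibitor library (-0.24 to -0.32; adjusted p = 0.0502 to 0.178). For Cox7c the fall ended without any of the 4 WT libraries (-0.31 to -0.37; adjusted p = 0.0515 to 0.154) and the rise without ADPKD vehicle or inhibitor library 2 (0.28 and 0.26; adjusted p = 0.12 and 0.171). In ADPKD cells Cox7c stood at -0.03 (adjusted p = 0.878) after removal of the GC trend. With the length trend removed, the falls of Cox7c and Atp5j in WT cells did not pass the test (-0.26 and -0.25; adjusted p = 0.0865 and 0.0828). For Ndufa9 the fall ended without WT vehicle library 1 (-0.39; adjusted p = 0.114) and the rise without ADPKD vehicle library 1 or inhibitor library 2 (0.38 and 0.40; adjusted p = 0.0584 and 0.0652).

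Beside the interaction, the proximal tubule markers moved the same way: 11 of 14 had a higher inhibitor effect in ADPKD than in WT cells and none a lower one, with 10 of 14 lower in WT cells and 11 of 14 higher in ADPKD cells with inhibitor. Of 8 intercalated cell markers, 6 rose in WT and 7 in ADPKD cells. Principal cell markers, 9 of 9 tested, rose in WT cells while respiratory subunits fell there. In the interaction, other lists moved the opposite way to the subunits. All 8 endothelial markers fell with inhibitor in ADPKD cells, from 0.1% and 0.126% of counts to 0.0347% and 0.0275%, and all 8 had a lower inhibitor effect there than in WT cells. The interaction was also lower for 6 of 9 principal cell, 5 of 8 macrophage and 5 of 8 tubular injury markers, and higher for 5 of 7 thick ascending limb, 5 of 7 distal tubule and 4 of 8 intercalated cell markers. Across all genes tested, 13.6% had a higher and 13% a lower inhibitor effect in ADPKD than in WT cells. The part of these lists in the interaction was not tested. Transcript length and base composition moved with the ADPKD contrast: across all genes with annotation, its log2 fold change correlated with GC content at a Spearman's rho of -0.35 and with length at 0.18, and across the subunits at -0.16 and 0.31. Their part in the inhibitor results was not tested beyond the fits with these trends removed.

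The members lie on 19 chromosomes, with 9 on chromosome 7 and 3 on the X chromosome. Exons of 31 members overlap those of another gene, for 28 of them on the opposite strand, which unstranded counting would not separate. Many respiratory genes have processed copies elsewhere in the genome, and how reads with several matches were counted is not given in the sources used here. Cox6c2, Ndufb4c and Ndufs6b are themselves annotated as processed pseudogenes. Ndufb4c had 73 and 69 counts in WT vehicle and 31 and 11 in ADPKD vehicle libraries, and Ndufs6b 35 and 28 against 5 and 10, both lower in the test (adjusted p = 0.0151 and 0.00642). The call of Ndufb4c ended without WT vehicle library 2 (-1.73; adjusted p = 0.0703) and without ADPKD vehicle library 2 (-1.28; adjusted p = 0.0896). The row Ndufb1-ps, set aside by its symbol, held 288 to 935 counts per library and was lower in ADPKD vehicle cells as well (-0.76; adjusted p = 0.000876).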

How the data were processed

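Bulk RNA-seq counts of 8 libraries, 4 groups of 2, were analysed. Per the labels' protocols, RNA was extracted with TRIzol and primed with oligo-dT; the extraction text also mentions whole kidney. The authors deposited raw counts per gene, made, per the submitters' processing notes, with HISAT2 2.1.0 and featureCounts 1.6.0 on mm10. Which gene annotation was counted, whether strand was used and how reads with several matches were handled is not given in the sources used here. Vehicle columns, whose names omit the treatment, were assigned by elimination.

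From these counts, genes passing edgeR's count filter (10 counts, total 15) were scaled by TMM and tested with edgeR 4.0.16 (R 4.3.3, limma 3.58.1) by the robust quasi-likelihood test in 1 fit of all 8 libraries, with 5 contrasts and Benjamini-Hochberg adjustment over 17440 genes at 0.05. Residual degrees of freedom were 4. On simulated data, drawn once per contrast, every changed gene that was called had the right direction, and the share of false calls was above the 0.05 threshold in each contrast. Values after ± are SE for log2 fold changes and SD otherwise. Library totals were 15108793 to 19702638 counts, CPM use these totals scaled by TMM, and counts limit precision for counting error only. Lengths, coordinates and overlaps came from GENCODE M21 (GRCm38), which held 96.9% of symbols, and promoters from RefSeq (GRCm38.p6).

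Alternatives were DESeq2 1.42.0, RLE scaling, no low-count filter, a filter of 5 CPM in 2 libraries, no robust option, a replicate block, the compared groups alone, lowess removal (span 0.3) of GC or length trends, an at least 2-fold change, and leaving out each library. Same-numbered libraries did not deviate together (correlations of -0.0415 to 0.0909 over 11195 genes), so numbers were not taken as pairs. Members, gene lists and motifs were chosen with earlier results of these data known, and the NRF1 motif was shortened by 1 base after a first search. Named genes are the extremes of each complex and contrast, isoform families, members moving against their complex and the leading genes of other lists; Cyc1, Uqcrc2, Atp5a1 and the X-linked Ndufb11 were added by role after their values were seen. Results of 1 member are not reported here by name, and it is counted in the totals.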

Additional observations from a re-analysis of the deposited data

Results flagged for a closer look

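The inhibitor effect differed between ADPKD and WT cells, by the interaction term of edgeR's quasi-likelihood fit, for 35 members: 34 with a higher and 1 with a lower log2 fold change in ADPKD cells. Of all genes tested, 13.6% were higher and 13% lower in this term, 26.6% in either direction. The 34 members were 18 subunits of complex I, 3 of complex II, 3 of complex III, 5 of complex IV and 5 of complex V. Only part of those of complexes I, IV and V are listed here, and the others passed the test as well. Interaction values are given as log2 differences. In complex II they were 1.25 for Sdha, 1.31 for Sdhc and 0.75 for Sdhd. In complex I they were 0.59 for Ndufa1, 0.70 for Ndufa3, 0.92 for Ndufa9, 0.64 for Ndufa13, 1.25 for Ndufb3, 0.78 for Ndufb9, 0.73 for Ndufc1, 0.99 for Ndufs1 and 0.50 for Ndufv1. In complex III they were 0.64 for Uqcrb, 0.45 for Uqcrc1 and 0.84 for Uqcrc2. In complex IV they were 0.56 for Cox7a2, 0.72 for Cox7c and 0.76 for Ndufa4, and the supercomplex factor Cox7a2l stood at -0.84. In complex V they were 0.44 for Atp5a1, 0.95 for Atp5j and 0.54 for Atp5l. Outside the members, the ATP synthase inhibitor Atpif1 stood at 0.73, the ETS factor Gabpa at 0.91, the complex I assembly factor Ndufaf6 at 1.48 and Coq8a of ubiquinone synthesis at 2.01. Exons of Gabpa and Atp5j overlap on opposite strands, so the values of these genes may share reads. The proximal tubule marker list moved the same way, with 11 of 14 interactions higher, and the endothelial list the opposite way, with 8 of 8 lower. The part of these lists in the values above was not tested.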

How the results depend on the processing

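With 2 libraries a group, each count rests on single libraries, and genes with few counts, such as Cox4i2, Cox6a2 and Ndufa4l2, could show only large differences. Between genotypes with vehicle, 83 members were lower and 1 higher, and 0 were higher by at least 2-fold. Under inhibitor, 80 were lower and 0 higher, or 1 higher with the length trend removed, and 75 to 81 were lower when a library was left out. Of the 17 members higher with inhibitor in ADPKD cells, the count became 10 with the 5 CPM filter, 29 with the length trend removed, 1 at 2-fold and 7 to 21 when a library was left out; of the 25 lower, it became 4 at 2-fold and 13 to 25. Of 53 lower in WT cells, 10 were lower by 2-fold and 37 to 53 without a library. The interaction count of 34 higher became 3 at 2-fold, 43 and 50 with the GC and length trends removed and 14 to 41 without a library, and the 1 lower became 0 at 2-fold and 1 to 2. Directions in ADPKD cells turned with the GC trend removed for Ndufv1 (0.34), Cyc1 (0.54), Cox7c (-0.03) and Atp5g2 (0.53), and with the length trend removed for Ndufa7 (0.31) and Atp5g2 (0.08); the cause was not tested. With the length trend removed, the ADPKD inhibitor medians of complexes I, III, IV and V became 0.20, 0.02, 0.18 and 0.09. Of single-gene results under all alternatives, 5334 kept their direction and side of the threshold, 193 lost the call, 68 gained it and 6 turned. The medians of complexes were less stable: 320 were labelled the same and 70 as moved. The fit with a replicate block called 1 member higher and 82 lower between genotypes with vehicle, 16 and 23 with inhibitor in ADPKD cells, 0 and 52 with inhibitor in WT cells, 0 and 80 between genotypes under inhibitor, and 34 and 1 in the interaction; the numbers do not pair libraries by design. The interaction could not be fitted in the compared groups alone.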
